A study of Mus musculus with 12 samples.

Results

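Dividing nuclei were followed through 12 single-nucleus RNA sequencing libraries of mouse fat, taken from 4 depots that the labels call mPRAT, lPRAT, iBAT and iWAT. Nuclei were chosen by measured values. A nucleus was counted as dividing when the unique molecular identifiers (UMIs) of Mki67, Top2a, Cenpf, Cenpe, Kif11, Anln and Ect2 summed to at least 4, with at least 3 of these 7 genes seen. Nuclei needed 300 genes or more, and mitochondrial transcripts could make up no more than 10% of their UMIs. Of the 106898 that passed, 385 met this rule, or 0.360%. Each nucleus was also given a lineage label from the highest UMI sum of 6 short marker lists. These were Adipoq, Plin1 and Acsl1 for adipocytes, Pdgfra, Lama2 and Dcn for stromal cells, Flt1 and Ptprb for endothelium, Mrc1 and Adgre1 for macrophages, Pax5 and Bank1 for B cells, and Skap1 and Themis for T or NK cells. A nucleus without a single highest sum had no lineage.

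All mice were male C57BL/6J animals on normal chow. Mice in the cold groups spent 3 days at 4 °C, the others being kept at 22 °C. The room temperature libraries cover 3 ages (1, 2 and 6 months) for mPRAT and for iBAT, the 2 later ages for lPRAT, and the oldest alone for iWAT. Cold libraries came from mPRAT, iBAT and iWAT at 6 months. The titles of the 6-month libraries conflict with their stated age of 16 weeks, while the younger mice, of 1 and 2 months, are also described as aged 4 and 8 weeks. Nuclei were stained with 7-AAD and sorted before loading, and how many mice contributed to a library is not given in the sources used here. Each group is 1 library, so no difference below has a replicate check or a test. All intervals are exact 95% intervals that cover counting error only, and a difference between a pair of libraries also holds whatever else differed between their animals and preparations.

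A cell that divides first copies its DNA in S phase, then condenses and separates its chromosomes in G2 and mitosis. Many genes of the later steps are transcribed in a wave that is shut off in resting cells, so their RNA marks cycling cells of any type. Mki67 encodes a coat protein of mitotic chromosomes, and Top2a the topoisomerase that untangles DNA. Cenpf and Cenpe are kinetochore proteins, Kif11 is a spindle motor, and Anln and Ect2 act in the cleavage furrow. In adipose tissue, mature adipocytes are held to divide rarely, while progenitors, endothelial cells and immune cells can cycle.

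Promoter sequence was not used by the rule. The letters TTTGAA or TTCGAA, the core of the element known as CHR, and CCAAT, the box read by NF-Y, were searched on both strands in the 250 bases before each start in the RefSeq promoter table for GRCm38.p6. TTTGAA or TTCGAA occurred in 4 of the 7 genes (57.1%), against 19.6% of all 27025 genes in the table. CCAAT occurred in 6 of the 7 (85.7%), against 37.5% of all genes, and 4 of the 7 held both, against 7.00%. The 120 bases before the start are shown for these 4 genes, 1 start being used where Ect2 has 2, with matches in capitals. The CCAAT matches of Mki67 lie farther from the start than the bases shown. On the strand printed, TTCAAA is TTTGAA and ATTGG is CCAAT read from the other strand. The regions are chr11:99024190-99024309 (minus strand) for Top2a, chr7:135716380-135716499 (minus) for Mki67, chr3:27153879-27153998 (minus) for Ect2 and chr19:37376262-37376381 (plus) for Kif11.
Top2a: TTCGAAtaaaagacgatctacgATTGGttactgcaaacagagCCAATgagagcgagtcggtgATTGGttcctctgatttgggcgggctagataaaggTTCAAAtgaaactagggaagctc
Mki67: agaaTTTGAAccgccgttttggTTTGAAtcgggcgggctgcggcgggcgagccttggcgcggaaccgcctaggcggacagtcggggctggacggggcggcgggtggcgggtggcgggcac
Ect2: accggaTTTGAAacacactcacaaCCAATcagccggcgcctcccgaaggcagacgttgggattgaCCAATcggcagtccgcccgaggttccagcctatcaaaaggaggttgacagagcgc
Kif11: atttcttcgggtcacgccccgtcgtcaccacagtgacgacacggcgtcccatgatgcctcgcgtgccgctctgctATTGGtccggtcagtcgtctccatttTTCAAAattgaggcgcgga

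Among 38 further genes of G2 and mitosis, 31 had a promoter in the table. Of these, 29.0% held TTTGAA or TTCGAA, 64.5% held CCAAT, and 22.6% held both. Among 28 S phase genes, 23 had a promoter, of which 3 held TTTGAA or TTCGAA, 16 held CCAAT (69.6%) and 2 held both (8.70%). CCAAT was more frequent in both lists than over all genes, and the CHR letters were above the share of all genes in the mitotic list and below it in the S phase list. The CHR shares rest on 9 and 3 genes, and their difference from all genes was not tested. A match is a run of letters, not a shown binding site.

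The values that chose the nuclei were spread widely among them. The 7 genes were at 0 UMIs in 102508 nuclei, at 1 in 3352, at 2 in 472 and at 3 in 129. Just outside the rule lay 19 nuclei with 3 UMIs of 3 genes and 52 nuclei with at least 4 UMIs of 2 or fewer genes. Just inside it lay 24 nuclei with 4 UMIs. The dividing nuclei had a median of 14 UMIs of the 7 genes and a highest value of 93, and 90 of them showed all 7 genes. Top2a was seen in 353 of the 385 (91.7%) and Mki67 in 348 (90.4%), while Cenpf was seen in 185 (48.1%). In all other nuclei, Anln was the most abundant of the 7, at 6.14 CPM (UMIs scaled to a common total), and it ranged from 0.823 CPM in cold iBAT to 20.1 CPM in lPRAT at 2 months.

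**Figure D1:**
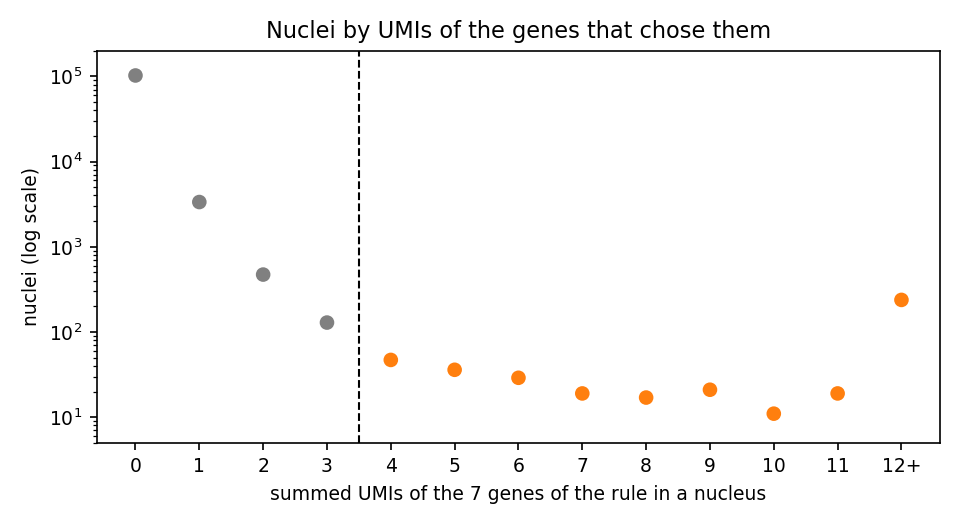
Number of nuclei (log axis) at each summed UMI count of the 7 genes, with the threshold of 4 UMIs as a dashed line and orange points at or above it. Counts fall from 102508 nuclei at 0 to 47 at 4, and 238 nuclei hold 12 or more; the orange points include the 52 nuclei that showed too few of the genes.

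The library labelled mPRAT at 6 months held 212 of the 385 dividing nuclei. Its share was 1.86% of 11412 nuclei (interval 1.62 to 2.12%). The lPRAT library of the same age followed with 52 of 5966, or 0.872% (0.652 to 1.14%). Cold mPRAT had 21 of 3781, or 0.555% (0.344 to 0.848%), and cold iBAT had 52 of 12674, or 0.410% (0.307 to 0.538%). The interval of cold mPRAT overlaps those of lPRAT and cold iBAT, those of lPRAT and cold iBAT do not overlap each other, and mPRAT at 6 months lies above them.

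Lower shares were found in iWAT. At room temperature, 23 of 8280 nuclei divided (0.278%, 0.176 to 0.417%), and in cold 6 of 4949 did (0.121%, 0.0445 to 0.264%). In lPRAT at 2 months the count was 6 of 3279 (0.183%, 0.0672 to 0.398%). iBAT at room temperature had 10 of 21115 at 6 months (0.0474%, 0.0227 to 0.0871%), 1 of 11398 at 1 month (0.00877%) and 0 of 12497 at 2 months. Taking 3 nuclei as the limit of a count of 0, the last allows a share of up to 0.0240%, and its exact interval reaches 0.0295%. mPRAT had 1 of 5391 at 1 month (0.0185%) and 1 of 6156 at 2 months (0.0162%).

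**Figure D2:**
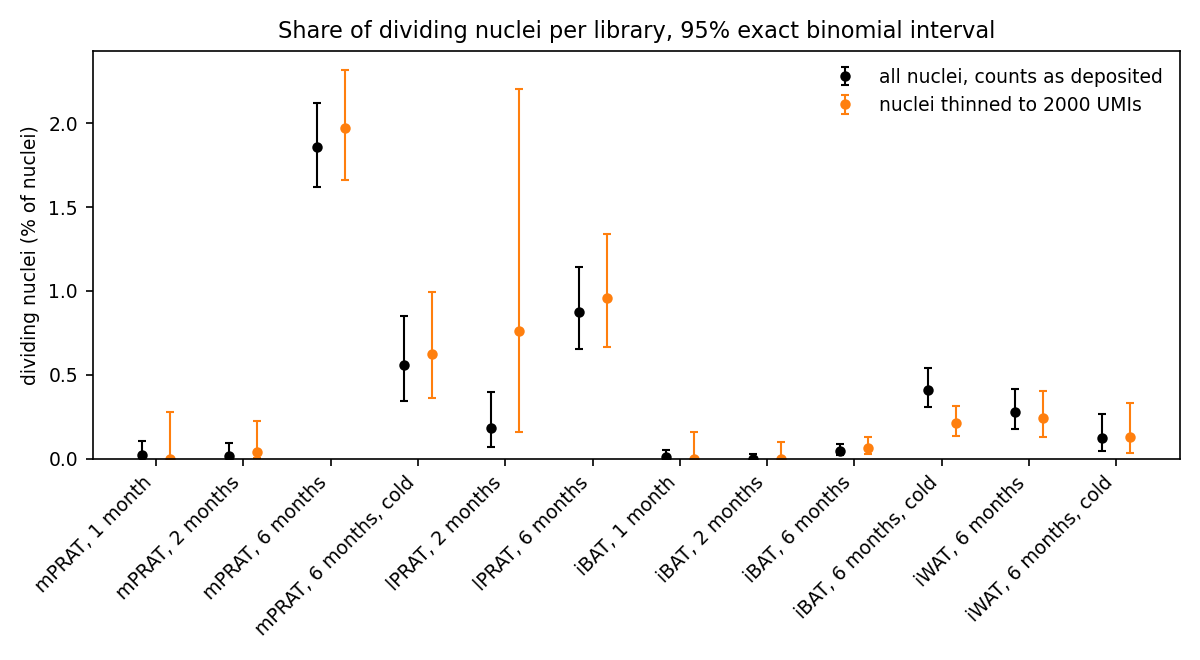
Share of dividing nuclei (% of nuclei) in each of the 12 libraries, with exact 95% intervals, from the counts as deposited (black) and after every nucleus was thinned to 2000 UMIs (orange). mPRAT at 6 months is highest at 1.86% and 1.97%, and the interval of lPRAT at 2 months widens from 3279 to 395 nuclei.

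Depth differed between the libraries and bears on these shares, since fewer UMIs make the threshold harder to reach. The median nucleus had 880 UMIs in lPRAT at 2 months, 1401 in mPRAT at 1 month, 2125 in iBAT at 6 months and 6300 in cold iBAT. Nuclei were therefore also thinned to 2000 UMIs each, with shallower nuclei left out. For thinned shares of dividing nuclei within a lineage, labels were called again from the thinned counts, so a nucleus could change lineage. mPRAT at 6 months then had 1.97%, lPRAT 0.959% at 6 months and 0.759% at 2 months (3 of 395), and cold mPRAT 0.621%. iBAT had 0.0622% at room temperature and 0.212% in cold. The mitochondrial limit removed between 0.0877% and 66.0% of barcodes per library, with the highest loss in cold mPRAT. Of all barcodes, 1414 occurred in more than 1 library, at most 0.671% of the smaller library of a pair. Among dividing nuclei 14 shared a barcode with a nucleus of another library, and in no case did both divide.

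In iBAT the cold library had the higher share, 8.66-fold that of the room temperature library (interval 4.36 to 19.1). After thinning to 2000 UMIs the ratio was 3.40 (1.43 to 9.31), from 25 of 11813 against 7 of 11250 nuclei. Mki67 and Top2a belong to the rule, so their sum is no separate support, but it needs no threshold per nucleus. The summed Mki67 and Top2a UMIs over all nuclei stood at 5.58 CPM in cold and 1.12 CPM at room temperature, a ratio of 5.00 (3.82 to 6.64). Dividing nuclei held 83.2% of these UMIs in the cold library and 65.6% in the other.

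In mPRAT the order was the other way around, and the libraries also differed in lymphocyte nuclei. The cold share was 0.299 of the room temperature share (0.181 to 0.469), and Mki67 and Top2a summed to 12.3 CPM in cold against 49.5 CPM. B nuclei made up 33.3% of the room temperature library (3797 nuclei) and 0.926% of the cold one (35 nuclei). With the B and the T or NK lineages set aside, a measure chosen after these values were seen, 31 of 5970 nuclei divided at room temperature (0.519%) and 19 of 3613 in cold (0.526%). The ratio was then 1.01 (0.541 to 1.85). These nuclei still held leukocyte RNA, since 1 of the 31 and 8 of the 19 were without a UMI of Ptprc, Dock2 and Ikzf1. Thinned to 2000 UMIs, the shares outside these lineages were 0.273% at room temperature and 0.596% in cold, a ratio of 2.19 (1.00 to 4.84). The part of lymphocyte numbers in the ratio was not tested. Without any mitochondrial limit, the ratio over all nuclei was 0.165 (0.111 to 0.237).

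In iWAT the cold share was 0.436 of the room temperature share, with an interval (0.145 to 1.10) that includes 1. Thinned to 1000 UMIs it was 1.07 (0.166 to 5.50), from 3 and 5 nuclei. Outside the lymphocyte lineages it was 0.585 (0.163 to 1.75), and thinned to 2000 UMIs the order there turned, with 4 of 3107 in cold (0.129%) and 6 of 5579 at room temperature (0.108%), a ratio of 1.20 (0.248 to 5.05). Summed Mki67 and Top2a UMIs gave 0.759 (0.574 to 0.993), an interval just below 1. Over all nuclei, the point values of the 3 depots differed in direction. With 3 cold and room temperature pairs, a two-sided exact test over depots could not go below p = 0.25, and none was made. No pair of cold and room temperature libraries had 20 or more dividing nuclei of the same lineage in both, so no gene was compared between temperatures within the dividing nuclei.

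With age, mPRAT differed most. The share at 6 months was 100.1-fold that at 1 month (17.8 to 3974), but this rests on 1 dividing nucleus in the younger library. Thinned to 2000 UMIs it was at least 8.81-fold, taking 3 nuclei as the limit of a count of 0, with an exact lower limit of 7.08. Summed Mki67 and Top2a were at 5.07 CPM at 1 month, 1.23 CPM at 2 months and 49.5 CPM at 6 months, and the dividing nucleus of the 1-month library held 14.9% of them. B nuclei made up 0.334% of the 1-month library (18 nuclei) and 33.3% of the 6-month one (3797 nuclei). Within B nuclei the 6 to 1 month ratio was at least 0.242, and within T or NK nuclei at least 0.363, which give no direction. Outside the lymphocyte lineages the 6-month share was 27.6-fold that at 1 month (4.59 to 1124). At 2000 UMIs 14 of 5136 stood against 0 of 1337, at least 1.21-fold with 3 nuclei as the limit of 0. The exact lower limit was 0.864, so no difference was detectable at that depth. Of nuclei without a UMI of the leukocyte genes Ptprc, Dock2 and Ikzf1, 1 of 3822 divided at 6 months (0.0262%) and 1 of 5179 at 1 month (0.0193%), so no difference was detectable there. In lPRAT the ratio of 6 to 2 months was 4.76 (2.05 to 13.6), but 1.26 (0.397 to 6.42) after thinning to 2000 UMIs and 1.65 (1.21 to 2.32) for summed Mki67 and Top2a. It was 2.43 (1.35 to 4.63) without a mitochondrial limit and 11.5 (3.01 to 97.6) with a limit of 5%. In iBAT it was 5.40 between 6 and 1 months, with an interval from 0.768 to 234 that includes 1.

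Among the 6-month libraries at room temperature, the mPRAT share was 2.13-fold that of lPRAT (1.57 to 2.95), 6.69-fold that of iWAT (4.34 to 10.8) and 39.2-fold that of iBAT (20.9 to 83.0). Outside the lymphocyte lineages, lPRAT was ahead, since the mPRAT share was 0.597 of it (0.369 to 0.950). lPRAT then exceeded iWAT 4.84-fold (2.59 to 9.69) and iBAT 20.3-fold (9.89 to 46.9). With nuclei thinned to 2000 UMIs, the mPRAT share outside these lineages was 0.291 of that of lPRAT (0.144 to 0.558), and lPRAT exceeded iWAT 8.72-fold (3.61 to 25.5).

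By lineage label, 161 of the 385 were B nuclei (41.8%), 71 macrophage (18.4%), 57 adipocyte (14.8%), 39 T or NK (10.1%), 21 stromal (5.45%) and 9 endothelial (2.34%). The other 27 (7.01%) had no lineage, and 23 of these carried at least 3 UMIs of Ptprc, Dock2 and Ikzf1, which are expressed by leukocytes. The order rests on mPRAT at 6 months. Without that library, 69 of 173 dividing nuclei were macrophage (39.9%), 42 adipocyte (24.3%), 20 stromal (11.6%) and 8 B (4.62%). For 293 of the 385, the leading lineage had at least 3 UMIs and at least 2 times the sum of the next. Markers of cell types outside the 6 labels were also present. The 4 dendritic markers Flt3, Xcr1, Clec9a and Siglech reached 3 UMIs in 26 of the 385, against 0.243% of other nuclei, and the mesothelial markers Msln, Upk3b, Wt1 and Gpm6a in 31, against 1.53%. The part of these cell types, or of the greater depth of dividing nuclei, in the lineage counts was not tested. Doublet scoring marked 56 of the 385. Among them were 21 of the 57 labelled adipocyte, 15 of the 161 B and 11 of the 39 T or NK nuclei. In the other nuclei of these labels it marked 11.4%, 6.05% and 4.66%.

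**Figure D3:**
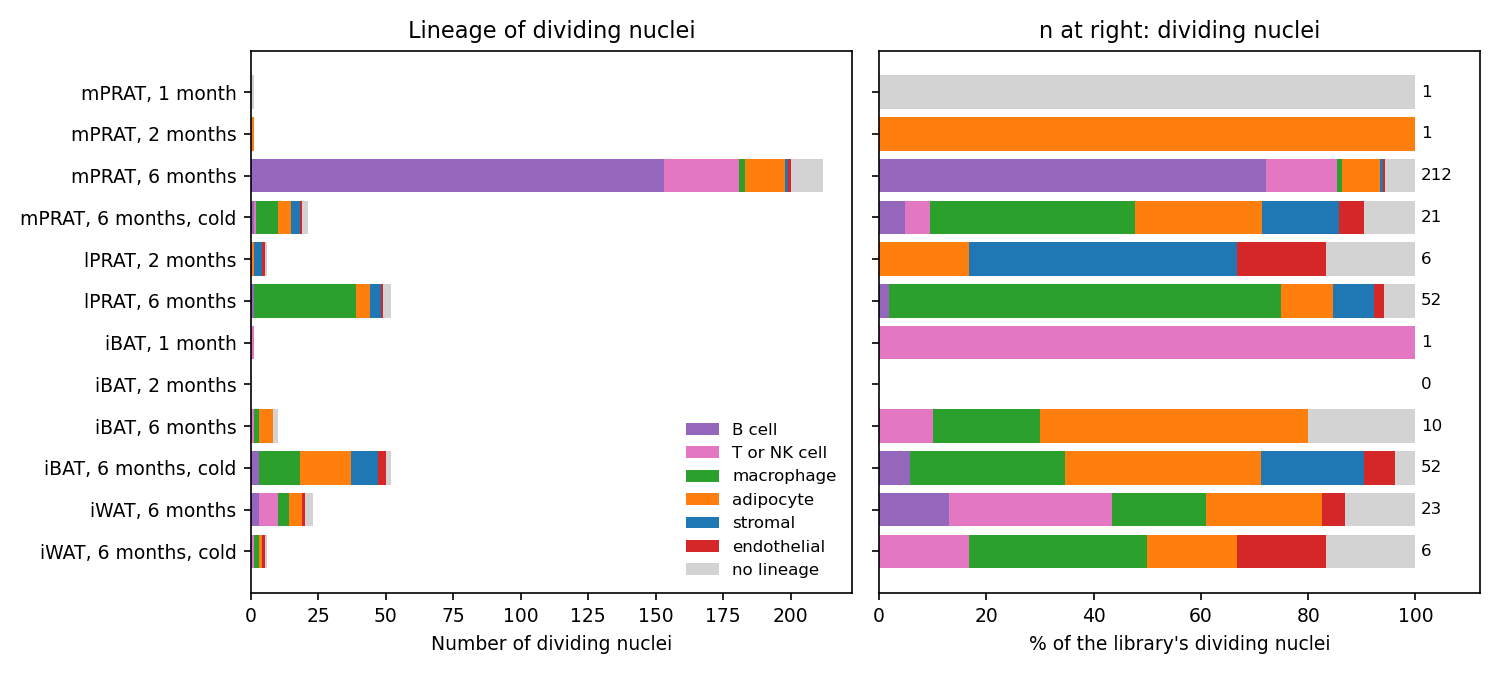
Lineage labels of dividing nuclei in each library, as numbers (left) and as percent of the library's dividing nuclei (right, with the number of dividing nuclei beside each bar). B nuclei fill 153 of 212 in mPRAT at 6 months, macrophages 38 of 52 in lPRAT at 6 months, and cold iBAT is split between adipocyte, macrophage and stromal labels.

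Of the dividing B nuclei, 153 came from mPRAT at 6 months, where they were 4.03% of 3797 B nuclei (3.43 to 4.70%), and 7.60% after thinning to 2000 UMIs. The other 8 came from iBAT in cold (3 of 40 B nuclei), iWAT at room temperature (3 of 514), cold mPRAT (1 of 35) and lPRAT at 6 months (1 of 85). The share in mPRAT was 6.90-fold that in iWAT (2.32 to 33.8). Thinned to 2000 UMIs and labelled again from the thinned counts, iWAT had 3 of 92 (3.26%), and the ratio was 2.33 with an interval that includes 1 (0.775 to 11.5). Dividing B nuclei were deeper than the other B nuclei, with medians of 5826 and 1498 UMIs.

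To describe what these nuclei express, summed UMIs per gene were set beside the UMIs expected from the other nuclei of the same lineage and library. Each value is a log2 ratio, for which 10 CPM was added to numerator and denominator. A gene was tested when it reached 20 UMIs in either sum, and called higher or lower past 2-fold. A gene scarce in the other nuclei reached that minimum only where it was high in the dividing ones, so its direction was fixed in advance. The rule itself used these nuclei, so the counts are descriptions. In B nuclei, 9.61% of 7783 genes were higher and 8.03% lower.

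All 38 genes of the G2 and mitosis list and 23 of 27 S phase genes were higher in dividing B nuclei, with median log2 ratios of 3.42 (3.21 to 3.63) and 2.22 (1.97 to 2.53) against 0.02 over all genes. Diaph3, a formin, led the mitotic list with 1320 UMIs against 35.8 expected (4.85). Kif4, a chromosome motor, had 340 against 2.40. Brip1, a DNA repair helicase, led the S phase list with 301 against 13.1 (3.74). The 4 S phase genes under 2-fold were low in UMIs and included the licensing factor Cdt1, with 27 against 13.6.

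Germinal centre genes were higher as a group in these nuclei. Germinal centres are the sites in lymphoid tissue where activated B cells divide and are selected. All 6 genes of the list exceeded 2-fold, with a median of 2.55. Mybl1, a transcription factor, had 1410 UMIs against 73.4 expected (4.08, 4.01 to 4.16), and 135 of the 161 nuclei carried it, against 3.74% of other B nuclei. Mybl1 was also higher in other dividing lineages, with 127 against 1.68 in adipocyte-labelled, 40 against 1.69 in T or NK and 28 against 1.67 in macrophage nuclei. Rgs13, a regulator of G protein signalling, had 262 against 23.0, and the lipid receptor S1pr2 had 186 against 13.7. Fas had 191 against 42.7 and Bcl6, the repressor that sets this state, 468 against 178. Of 3 plasma cell genes measured, Jchain had 256 against 24.2 (2.95) and Xbp1 76 against 32.3 (1.02), while Prdm1 had 20 against 9.22 (0.63).

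Genes of resting B cells were lower. Ighd, the heavy chain of surface IgD, had 113 UMIs against 1159 expected (-3.24, -3.50 to -3.00). The low affinity IgE receptor Fcer2a had 45 against 329 (-2.62), and the complement receptor Cr2 150 against 925 (-2.54). Ighm had 497 against 707 (-0.50), under 2-fold. Ighd UMIs occurred in 49 of 161 dividing nuclei (30.4%) and in 75.5% of other B nuclei, although the latter were shallower. Among G1 genes Cdk6 had 642 against 189 (1.71) and Ccne2 59 against 2.69 (2.41), but Ccnd3, a D-type cyclin, had 303 against 1055 (-1.77). The pocket proteins went in opposite directions, with Rbl1 at 1.83 and Rb1 at -1.87.

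Read per nucleus, S1pr2 had a UMI in 81 of 161 dividing B nuclei (50.3%, 42.3 to 58.3%) and in 1.72% of other B nuclei. Rgs13 had one in 80 of 161 (49.7%, 41.7 to 57.7%) and in 1.51% of other B nuclei. The median depths were 5826 and 1536 UMIs, the other nuclei here being the 4310 of libraries with a dividing B nucleus. With B nuclei of mPRAT at 6 months thinned to 2000 UMIs, S1pr2 was seen in 43 of 147 dividing (29.3%, 22.0 to 37.3%) and 27 of 1186 other nuclei (2.28%, 1.51 to 3.30%). Rgs13 was seen in 44 of 147 (29.9%, 22.7 to 38.0%) and 38 of 1186 (3.20%, 2.28 to 4.37%).

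Outside the fixed lists, Neil3, a DNA glycosylase, was the highest gene in dividing B nuclei, with 475 UMIs against 6.50 expected (4.85). Parpbp had 247 against 3.07 (4.26). Others of the 15 highest were Cenpp, Galnt17, Depdc1b, the kinesins Kif18a and Kif14, the centriole factor Stil, Depdc1a, Efcab11, Lmo7, Cip2a, the mitotic kinase Mastl and the abscission protein Cep55, between 3.58 and 4.05. The 5 lowest were Gm47782 (14 against 416, -4.13), the Notch coactivator Maml3 (35 against 571, -3.68), the chromatin organiser Satb1 (68 against 786, -3.35), the urea transporter Slc14a2 (4 against 134, -3.33) and Zfp318 (35 against 426, -3.27), a zinc finger factor needed for IgD expression. Of 12 mature adipocyte genes measured in B nuclei, 3 were lower past 2-fold and 9 were not, with a median of -0.81, beside the difference in depth given above. The part of depth in these values was not tested.

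**Figure D4:**
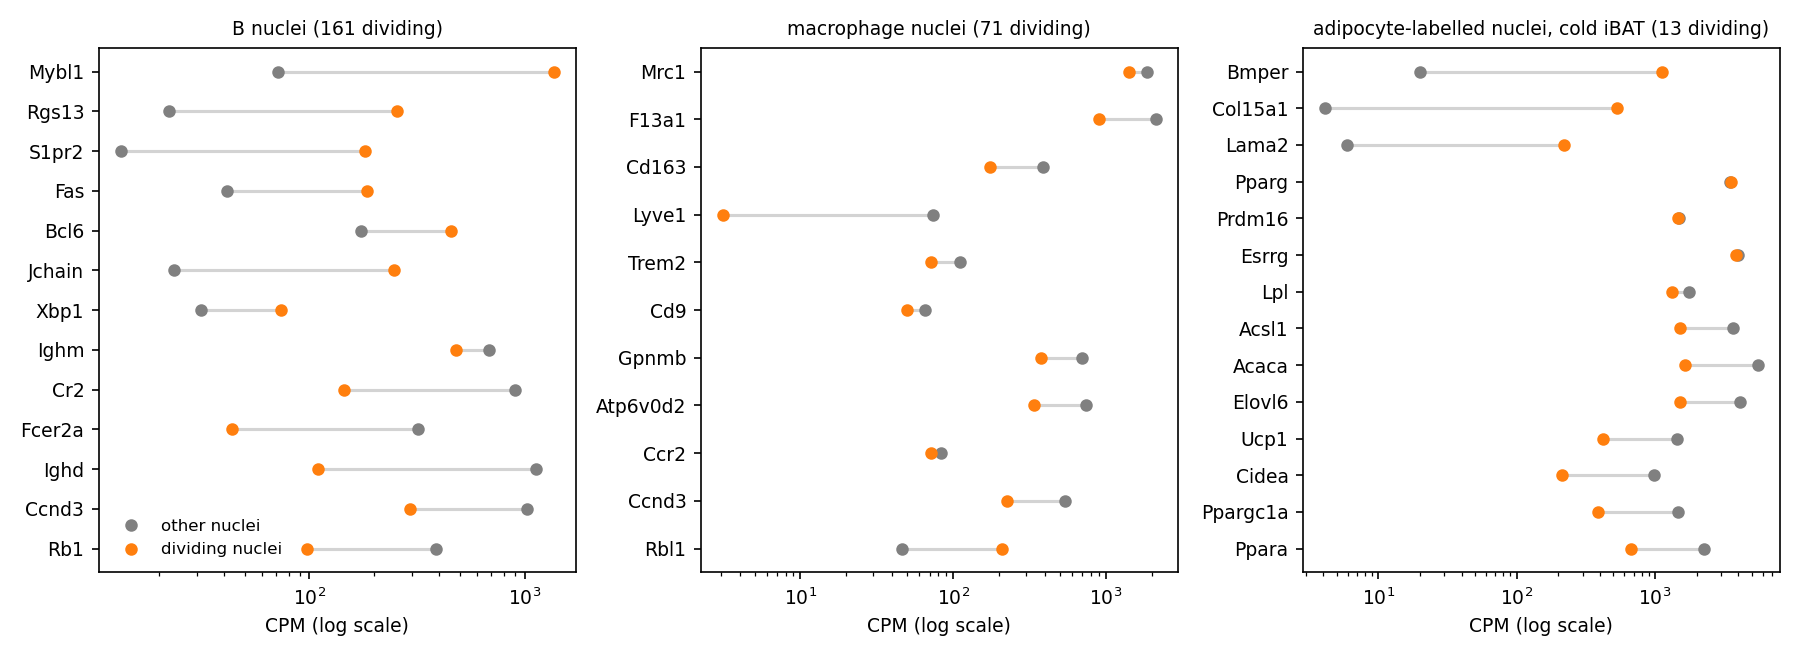
Summed level (CPM, log axis) of selected genes in dividing nuclei (orange) and in other nuclei of the same lineage, matched by library (grey). Germinal centre genes lie to the right and resting genes to the left in B nuclei, resident genes lie to the left in macrophages, and in the 13 adipocyte-labelled nuclei of cold iBAT Bmper, Col15a1 and Lama2 lie far to the right while Pparg, Prdm16 and Esrrg overlap.

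Dividing macrophages were most numerous in lPRAT at 6 months, with 38 of 1143 macrophage nuclei (3.32%, 2.36 to 4.53%), against 0 of 194 at 2 months. Taking 3 nuclei as the limit of that 0, the older share was at least 2.15-fold higher, with an exact lower limit of 1.66. The younger macrophages were shallow, with a median of 722.5 UMIs against 2149, and thinning to 2000 UMIs left 0 of 9 against 18 of 586 (3.07%), at which no difference was detectable. Their share in mPRAT at 6 months was 2 of 279 (0.717%), which is 0.216 of the lPRAT share (0.0252 to 0.834). The thinned ratio was 0.221, with an interval that includes 1 (0.00532 to 1.40). The cold libraries of mPRAT and iBAT had 8 of 217 (3.69%, 1.60 to 7.13%) and 15 of 237 (6.33%, 3.59 to 10.2%). Their room temperature libraries had 2 of 279 and 2 of 166 (1.20%, 0.146 to 4.28%). The cold ratios were 5.14 in mPRAT (1.03 to 49.7) and 5.25 in iBAT (1.22 to 47.3), each resting on 2 nuclei at room temperature. In iWAT it was 0.546 (0.0494 to 3.81), from 2 of 410 and 4 of 448. Thinned to 2000 UMIs and labelled again, mPRAT had 9 of 90 in cold (10.0%) and 1 of 147 at room temperature (0.680%). Cold iBAT had 10 of 132 and the room temperature library only 13 macrophages left, of which 2 divided, so the order of the shares (7.58% and 15.4%) was the reverse of the unthinned one. In iWAT the order reversed as well, from 1 of 60 in cold (1.67%) and 2 of 144 (1.39%).

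In macrophage nuclei, 8.23% of 4045 genes were higher and 2.3% lower, with a median of 0.03 over all genes. All 33 G2 and mitosis genes measured were higher, with a median of 3.80 (3.46 to 4.16), as were all 18 S phase genes, with 2.48 (2.02 to 2.89). Knl1, the kinetochore scaffold, had 184 UMIs against 2.30 expected (5.08), and Brip1 107 against 5.96 (3.58). The G1 cyclin Ccnd3 was lower here too, with 73 against 174 (-1.21), and Rbl1 higher, with 68 UMIs (1.97).

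Of the resident macrophage genes, 3 of 4 were lower, with a median of -1.17. Lyve1, a hyaluronan receptor, had 1 UMI in 71 nuclei against 23.9 expected (-2.68). The transglutaminase F13a1 had 293 against 689 (-1.22) and the haemoglobin scavenger Cd163 56 against 125 (-1.12), while Mrc1, which helped to choose the lineage, had 457 against 606 (-0.40). F13a1 was lower in each of the 3 libraries with at least 5 dividing macrophages. It stood at 336 CPM against 1032 in lPRAT at 6 months, at 2175 against 3937 in cold mPRAT and at 1680 against 3818 in cold iBAT. Of 4 genes of lipid-associated macrophages, Atp6v0d2 was lower, with 110 against 239 (-1.09), and Gpnmb (-0.88), Trem2 (-0.57) and Cd9 (-0.34) were under 2-fold. The monocyte receptor Ccr2 had 23 against 26.9.

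Outside the lists, Neil3 again led, with 218 UMIs against 2.64 expected (5.23). Sdk1, a cell adhesion molecule of the immunoglobulin family, came second, with 294 against 7.38 (4.81). It had a UMI in 44 of 71 dividing macrophages (62.0%) and in 2.90% of the other macrophages, with median depths of 3789 and 1716 UMIs, and 1 nucleus held 15.6% of its UMIs. Sdk1 was higher in each of the 3 libraries, at 407 CPM (323 to 507) against 16.5 in lPRAT at 6 months, 1953 (1419 to 2622) against 15.2 in cold mPRAT and 1762 against 38.1 in cold iBAT. Others of the 15 highest were Lockd, Efcab11, the spindle protein Spag5, Depdc1a, Kif14, the cyclin Ccnf, Mastl, Ckap2, Parpbp, Depdc1b, the lamin Lmnb1 and Kif18a, between 3.85 and 4.81. The 5 lowest were the endothelin receptor Ednrb (4 against 49.4), the lectin Cd209g (0 against 20.3), the leukotriene synthase Ltc4s (1 against 25.2), Ltbp1 (2 against 30.1) and Retnla (4 against 41.0).

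The 57 nuclei labelled adipocyte were a mixed set. In 34 of them at least 3 UMIs of Ptprc, Dock2 and Ikzf1 were found, against 1.68% of other adipocyte-labelled nuclei, and 21 had none. In 9 of the 57, the dendritic cell markers Flt3, Xcr1, Clec9a and Siglech summed to at least 3 UMIs. Of these 9 nuclei 4 came from mPRAT at 6 months, 2 each from iWAT and cold iBAT, and 1 from cold mPRAT. The genes higher in the whole set included these leukocyte genes. Of 6038 genes tested, 15.3% were higher and 3.03% lower. The 32 of 38 mitotic genes (median 3.32) and the 20 of 28 S phase genes (2.59) that were measured were all higher. Among the 15 highest outside the lists were Neil3 (180 UMIs against 0.213 expected, 5.01), Lockd, Cenpp, Lmnb1 and Efcab11, which were also among the highest in B or macrophage nuclei, and Sdk1 (312 against 17.2). Further ones were Wdfy4 (437 against 10.9, 4.74), Mctp1, Parp8, Elmo1, Dock2 (587 against 35.0), Arhgap15, Gm42047 and Gm36723, with Wdfy4, Elmo1, Dock2 and Arhgap15 known in leukocytes. The lowest were Slc14a2 (0 against 36.3), Csmd1, Gm32200, the adaptor Dok6 and transferrin, Trf.

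In the 57 nuclei, most thermogenic and lipogenic genes were lower, and most mature adipocyte genes were not past 2-fold. Of the 10 thermogenic genes 7 were lower, with a median of -1.15, including the uncoupling protein Ucp1 (119 against 331, -1.43) and the coactivator Ppargc1a (165 against 460, -1.45). Of 8 lipogenic genes 6 were lower, with a median of -1.08, and Acly, which makes acetyl-CoA for fat synthesis, was lowest (135 against 371, -1.42). Of 13 mature adipocyte genes only Acaca passed 2-fold (-1.22), and the median was -0.68.

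Libraries differed sharply in how many adipocyte-labelled dividing nuclei carried leukocyte UMIs. In mPRAT at 6 months 12 of 15 had at least 3 such UMIs, with a median of 41 and a highest value of 101. In iWAT and lPRAT at 6 months all 5 of 5 did. In cold iBAT 13 of 19 had none, and in cold mPRAT 4 of 5 had none. The other adipocyte-labelled nuclei also differed between libraries. At least 3 such UMIs occurred in 11.2% of them in mPRAT, 7.23% in iWAT and 4.00% in lPRAT, all at 6 months and room temperature. In cold iBAT it was 0.806% and in cold mPRAT 0.979%. Room temperature iBAT at 6 months had 0.549%, although 4 of its 5 dividing ones had at least 3. The part of this background was not tested. Of stromal nuclei 19 of 21 had none, and of endothelial nuclei 6 of 9. Over all lineages, 27 dividing nuclei of cold iBAT had no leukocyte UMI against 1 of room temperature iBAT, a ratio of 45.0 (7.41 to 1842) to all nuclei. In mPRAT 8 in cold stood against 1, a ratio of 24.1 (3.24 to 1071) to all nuclei, or 9.41 (1.26 to 418) to nuclei without leukocyte UMIs. Both ratios rest on 1 nucleus at room temperature. They come from counts that were not thinned, and the cold libraries were deeper over all nuclei. Median UMIs were 6300 against 2125 in iBAT and 3531 against 2737 in mPRAT. Within the adipocyte, stromal and endothelial labels, however, cold mPRAT was the shallower library. Its other nuclei had medians of 4511 against 6120, 2186 against 3586 and 1337 against 2060 UMIs, in that order. The part of depth in these ratios was not tested. Over all dividing nuclei of iBAT, thinning to 2000 UMIs took the cold ratio from 8.66 to 3.40. iWAT had 0 such nuclei at room temperature and 1 in cold.

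**Figure D5:**
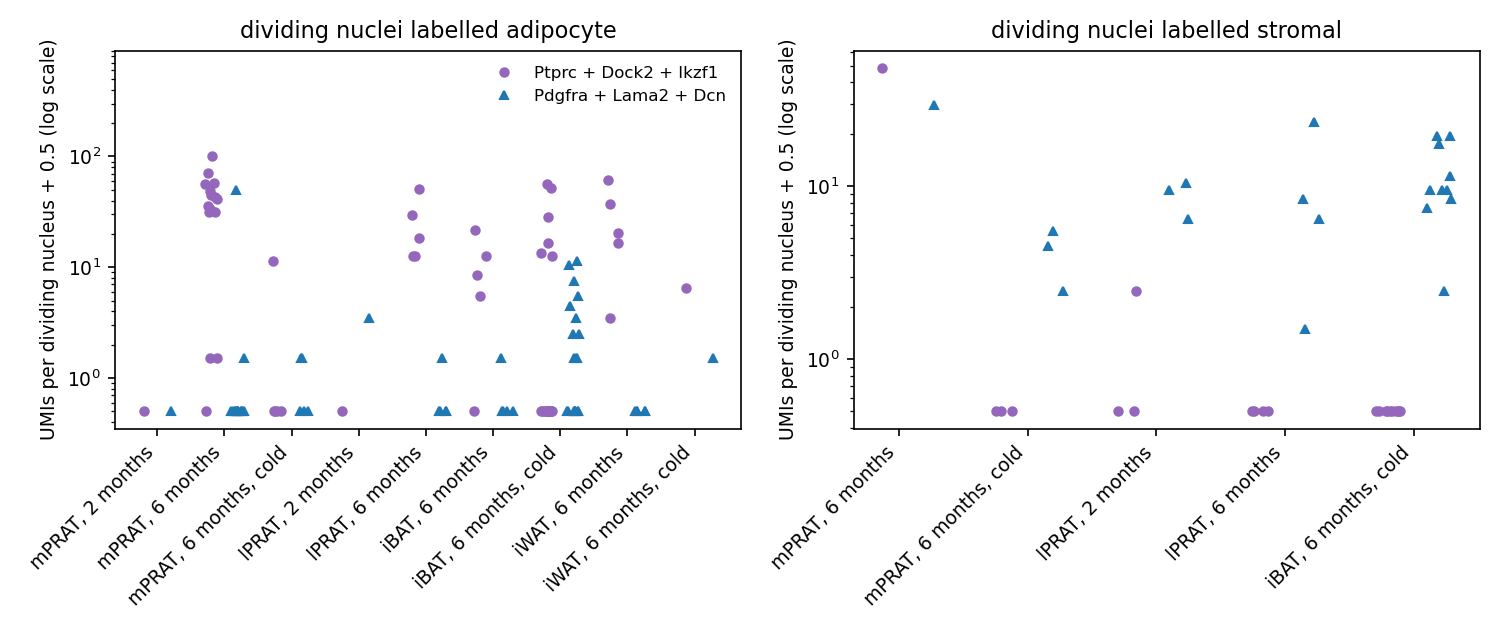
UMIs of leukocyte genes (circles) and stromal genes (triangles) in each dividing nucleus labelled adipocyte (left) or stromal (right), by library, with 0.5 added for the log axis. Adipocyte-labelled nuclei of mPRAT at 6 months sit high in leukocyte UMIs, while 13 of 19 in cold iBAT sit at 0 and most of these carry stromal UMIs.

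The 13 adipocyte-labelled nuclei of cold iBAT without leukocyte UMIs were high in summed Bmper and Col15a1, which belong to the list of committed preadipocyte genes. Of the 5 genes of that list measured, these 2 were more than 2-fold higher, and the median was 0.04. Lpl (164 against 217), Pparg (438 against 427) and Fabp4 (75 against 143) were not past 2-fold. Bmper, a secreted modulator of BMP signalling, had 138 UMIs against 2.48 expected from other adipocyte nuclei of the library (5.23, 4.98 to 5.47). Col15a1, a basement membrane collagen, had 65 against 0.505 (5.25), and Lama2, a laminin chain that is not on the list, 27 against 0.727 (3.85). Lama2 also passed the minimum only through the dividing nuclei. A Bmper or Col15a1 UMI was present in 12 of the 13 (92.3%, 64.0 to 99.8%), with a median of 16 UMIs and a highest value of 37. It was present in 8.12% of other adipocyte, 79.6% of other stromal, 3.04% of endothelial and 1.35% of macrophage nuclei of the same library. Thinned to 2000 UMIs, these values were 10 of 11 against 2.89% of adipocyte and 85.9% of stromal nuclei. Doublet scoring marked 1 of the 13, and 11.5% of the other adipocyte nuclei of the library.

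These nuclei were not alike in adipocyte genes. UMIs of Adipoq, Plin1 and Acsl1 ranged from 2 to 69 per nucleus, with a median of 13, against a median of 31 in other adipocyte nuclei. Pparg (438 against 427), Esrrg (477 against 491) and Prdm16 (179 against 184) had sums close to those expected from other adipocyte nuclei. A single nucleus held 79 of the 179 Prdm16 UMIs and 118 of the 477 Esrrg UMIs. Other genes of the lipogenic and thermogenic lists were lower. Acaca had 204 against 684 (-1.74), Elovl6 188 against 502 (-1.41), Ucp1 52 against 179 (-1.76), Cidea 26 against 121 (-2.17), Ppargc1a 48 against 180 (-1.88) and Ppara 83 against 277 (-1.72). Of 1835 genes tested, 18.4% were higher and 14.1% lower, while 8 of 10 thermogenic genes and 7 of 7 lipogenic genes were lower, with medians of -1.56 and -1.47. Of 11 mature adipocyte genes measured, 5 were lower and 0 higher, with a median of -0.87.

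Set beside the other stromal nuclei of cold iBAT, the same 13 nuclei had more of most thermogenic and lipogenic genes measured. Prdm16 had 179 UMIs against 16.9 expected (3.31), Esrrg 477 against 38.3 (3.60) and Pparg 438 against 137 (1.66). Dcn (12 against 173), Lama2 (27 against 259) and Pdgfra (8 against 73.0) were lower, which the lineage labels fix because these 3 genes assign the stromal label. Of 1957 genes, 23% were higher and 20% lower. All 8 thermogenic genes measured were higher, with a median of 1.59, as were 6 of 8 mature adipocyte genes (1.93) and 5 of 6 lipogenic genes (1.31). The mature adipocyte list holds Adipoq, Plin1 and Acsl1, which assign the adipocyte label, so the labels fix part of its count. Col15a1 was similar, with 65 against 59.1. Beyond the doublet scores given above, whether any droplet held a nucleus of each kind was not tested.

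By label alone, 19 of 11188 adipocyte nuclei divided in cold iBAT (0.170%, 0.102 to 0.265%) and 5 of 19140 at room temperature (0.0261%, 0.00848 to 0.0610%), a ratio of 6.50 (2.35 to 22.3). It was 1.67 (0.325 to 10.8) when nuclei were thinned to 2000 UMIs, where 5 and 3 nuclei were left. Without scored doublets it was 25.2 (3.92 to 1058), from 16 and 1 nuclei. Doublet scoring marked 11.5% of the other adipocyte nuclei in cold and 18.4% at room temperature. The part of this difference in the ratio was not tested. In mPRAT the adipocyte ratio of cold to room temperature was 0.575 (0.163 to 1.66), from 5 of 2457 and 15 of 4235, and thinned to 2000 UMIs 0.271 (0.00601 to 2.11), from 1 and 7 nuclei. Among members without leukocyte UMIs it was 6.89 (0.682 to 340), from 4 and 1 nuclei, so its direction rested on which adipocyte-labelled nuclei were counted.

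In cold iBAT, 10 of 570 stromal nuclei divided (1.75%, 0.844 to 3.20%), against 0 of 786 at room temperature. With 3 nuclei as the limit of 0 the cold share was at least 4.60-fold higher, and the exact lower limit was 3.09. Thinning left 5 of 411 and 0 of 179, at which depth no difference was detectable, and 2 of 91 (2.20%) in lPRAT at 2 months. The other 11 came from lPRAT at 6 months (4 of 1529) and at 2 months (3 of 525), cold mPRAT (3 of 441) and mPRAT at 6 months (1 of 688), the last with 48 leukocyte UMIs. iWAT and iBAT at room temperature had none.

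In dividing stromal nuclei, 11.5% of 1968 genes were higher and 11.1% lower. Of the lists, 17 of 38 mitotic genes (median 4.27) and 9 of 28 S phase genes (3.13) were measured, and all of these were higher. Below the minimum of UMIs, the S phase genes Mcm2 (0.92), Mcm4 (0.24), Chaf1b (0.50) and Gins2 (-0.20) were under 2-fold. Of 4 progenitor genes 3 were lower, the peptidase Dpp4 (15 against 52.6, -1.72), Pi16 (8 against 32.5, -1.86) and Sema3c (36 against 76.4, -1.06), with a median of -1.39. Of 5 committed genes 2 were higher, Pparg (198 against 88.3, 1.15), the master regulator of adipogenesis, and Lpl (126 against 61.9, 1.01), with a median of 0.98. Col15a1 had 82 against 41.0 (0.98) and Bmper 175 against 166 (0.08). Fmo2, of a regulatory progenitor list, had 1 UMI against 42.1 (-4.20). The nuclear receptor Esrrg had 140 UMIs against 26.8 (2.33), all 140 of them in the 10 nuclei of cold iBAT, where Pparg had 174 against 67.5 (1.36), Lama2 46 against 127 (-1.45) and Dcn 38 against 84.9 (-1.15). A Bmper or Col15a1 UMI was present in 9 of these 10. Esrrg was unevenly spread over them, with 45, 40 and 26 UMIs in single nuclei and none in some. Pparg ranged from 0 to 46 UMIs per nucleus.

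Of the 9 dividing endothelial nuclei, 3 of 430 came from cold iBAT and 1 each from 6 other libraries. Only 1 gene of the rule, 2 mitotic and 2 S phase genes reached 20 UMIs in them. Thus their profile is not described further.

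Among T or NK nuclei, 28 of 1645 divided in mPRAT at 6 months (1.70%, 1.13 to 2.45%) and 7 of 542 in iWAT (1.29%, 0.521 to 2.64%), a ratio of 1.32 (0.563 to 3.57). Thinned to 2000 UMIs the order turned, with 20 of 774 in mPRAT (2.58%) and 5 of 173 in iWAT (2.89%), a ratio of 0.894 (0.326 to 3.05), so no difference was detectable. The other 4 were single nuclei of cold mPRAT, cold iWAT and iBAT at 1 and 6 months. Of 3259 genes, 8.35% were higher. Among them were 26 of 27 mitotic genes measured (median 3.58) and all 16 S phase genes measured (3.18), of 38 and 28 listed. Smc4, a condensin subunit, was the mitotic gene under 2-fold, with 212 UMIs against 108 (0.96). None of 4 subset genes passed 2-fold. Cd4 had 15 against 26.5, Cd8a 14 against 20.9, Il2ra, the high affinity interleukin 2 receptor chain, 23 against 21.4, and Ctla4 27 against 15.9.

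Of the 385 dividing nuclei, 286 had more UMIs of the mitotic list and 88 more of the S phase list. S phase genes made up 28.0% of the UMIs of both lists in macrophages, against 36.2% in B, 38.4% in adipocyte-labelled, 35.6% in stromal and 39.9% in T or NK nuclei. The rule itself favours mitotic genes, so these shares describe the chosen nuclei only.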

How the data were processed

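The deposited files hold raw UMI counts (whole numbers, one matrix per library) that the authors made with Cell Ranger 7.0.0 per the file headers, and the submitters' processing notes name mm10. Whether intronic reads were counted is not given in the sources used here. Libraries ranged from 4328 to 21384 barcodes, each with at least 500 UMIs. Nuclei were filtered, labelled, thinned (seed 1) and summed in Python 3.11.15 with numpy 2.4.6, scipy 1.17.1 and pandas 2.3.3. Doublets were scored with scrublet in scanpy 1.11.5 and kept, and the highest scores, at 0.8% per 1000 nuclei, were removed as an alternative. Shares have Clopper-Pearson intervals, ratios exact conditional binomial intervals, and UMIs Poisson limits. A list's interval is the median of its genes' limits. The comparison of sums was tested on simulated data. Named genes outside the lists were the 15 highest and 5 lowest for lineages with at least 50 dividing nuclei. Members, lists and lineage rules were chosen with earlier results of these data known. The leukocyte genes, the shares outside lymphocytes, the thinned S1pr2 and Rgs13 shares, the thinned ratios between depots and within lineages, and the alternatives without Anln or without leukocyte UMIs were chosen after seeing the data. No set was tested for enrichment. Some genes that the naming rule picked are not reported here.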

Additional observations from a re-analysis of the deposited data

Results flagged for a closer look

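Barcodes above the mitochondrial limit entered the alternative without that limit and no other comparison. Some met the dividing rule beyond what a count of 0 allows. In cold mPRAT 13 of 7353 such barcodes did (0.177%), in lPRAT at 2 months 9 of 891 (1.01%), and in mPRAT at 6 months 4 of 237 (1.69%).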

How the results depend on the processing

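Of the alternative values computed, 266 stayed close to the reported ones, and 44 moved by more than counting error. Directions changed in few-nuclei ratios. For adipocyte nuclei in mPRAT the cold ratio of 0.575 became 6.89 (4 and 1 nuclei) among members without leukocyte UMIs. In iWAT 0.436 became 1.07 at 1000 UMIs (3 and 5 nuclei), and for its endothelial nuclei 0.644 became 1.66 with at least 1000 genes (1 and 1 nuclei). At 2000 UMIs the order of macrophage shares reversed in iBAT (7.58% in cold and 15.4%) and iWAT (1.67% and 1.39%), the cold ratio outside lymphocytes in iWAT went from 0.585 to 1.20, and the T or NK ratio of mPRAT to iWAT from 1.32 to 0.894. Bounds given as at least set a count of 0 to 3 nuclei and leave out the counting error of the other count. Those under 1 give no direction. With nuclei thinned to 1000 UMIs, the cold ratio in mPRAT was 0.474, and the 6 to 1 month ratio there at least 7.70. With thinning to 2000 UMIs, the cold ratio in iBAT was 3.40, that of its adipocyte nuclei 1.67 and that of its stromal nuclei at least 0.726, and the age ratios were at least 8.81 in mPRAT, at least 0.490 in iBAT and 1.26 in lPRAT. Without a mitochondrial limit the cold ratio in mPRAT was 0.165. With at least 1000 genes the lPRAT age ratio was 1.47 and the stromal bound in iBAT 1.88. That bound was 2.76 with at least 6 UMIs of 4 genes and 1.84 without Mki67 and Top2a. Without scored doublets the adipocyte cold ratio in iBAT was 25.2.

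Adipocyte labels made up 4.80% of dividing nuclei at 1000 UMIs, 10.5% at 2000 UMIs, 10.9% without doublets, 9.09% with a clear lineage only and 43.8% of leukocyte-free members. Stromal labels were 39.6% of the latter, and endothelial labels 12.5%, or 0.8% at 1000 UMIs. Leaving out each library in turn gave 11.4 to 24.3% adipocyte, 3.30 to 11.6% stromal and 1.80 to 4.62% endothelial labels, where mPRAT at 6 months sets the highest values and cold iBAT the lowest.

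With 1 CPM added, list medians were 2.96 (S phase), 5.01 (mitosis) and 3.29 (germinal centre) in B, 3.20 and 5.08 in macrophage and 4.34 and 5.71 in adipocyte nuclei. Without doublets, adipocyte medians were 3.03 (S phase), 3.74 (mitosis), -1.20 (mature) and -1.53 (thermogenic). Leaving out each library gave 2.21 to 2.61, 3.42 to 5.12 and, for resting genes, -4.51 to -2.57 in B nuclei, where the far values lack mPRAT at 6 months. It gave -1.25 to -0.87 for resident genes in macrophages, the latter without lPRAT at 6 months, and 2.55 to 3.1 for S phase in adipocyte nuclei. The cause of these shifts was not tested. A test across the 3 cold and room temperature depot pairs could not go below p = 0.25 (two-sided exact) and was not made.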
